A study of Bos taurus with 2 samples.

Results

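A set of 6 genes that marks the passage from a neural progenitor to a young neuron was followed in single cells of day 25 bovine embryos. They are the cytoskeletal genes TUBB3, DCX and STMN2, the neuronal RNA-binding genes ELAVL3 and ELAVL4, and the transcription factor gene INSM1. The 6 genes were taken by name from the 17846 gene rows of the deposited count table, and all 6 are there. The embryos were chimeras that had received bovine embryonic stem cells, were flushed at day 25, and were digested with papain and DNase, sorted and run on a 10x Genomics 3' droplet system. The labels do not give the gate of the sort, the number of embryos, or whether the 2 replicates came from separate embryos. There was 1 group of samples, so every comparison is between sets of cells taken from the same 2 suspensions. The p-values set a difference between sets only against how far it varied between these 2 samples. The fit shares this spread over genes, and it may be technical.

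Neurons are born when a dividing SOX2-expressing progenitor leaves the cell cycle under the control of proneural factors and of Notch signalling between neighbouring cells. The young neuron then builds a microtubule skeleton and switches its RNA-binding proteins. TUBB3 encodes a beta-tubulin that is enriched in neurons, DCX binds and stabilises microtubules in migrating neurons, and STMN2 encodes a stathmin-family protein that binds tubulin dimers in growing axons. ELAVL3 and ELAVL4 (HuC and HuD) bind AU-rich RNA elements and are largely neuronal, as is ELAVL2 (HuB), while ELAVL1 (HuR) is expressed in most cell types. INSM1 is a zinc finger repressor known, in mouse, from progenitors that are about to give rise to neurons and from neuroendocrine cells. DLL3 is a Notch ligand family member that acts mainly within its own cell, and HES6 is a helix-loop-helix protein of newly forming neurons that works against the Notch target HES1.

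Replicate 1 held 1973 cells and 11182089 UMIs, and replicate 2 held 2464 cells and 15427708 UMIs (a UMI is a barcode by which copies of 1 captured RNA molecule are counted as 1). After filtering, 1939 and 2417 cells were kept, with a median of 4987 and 5713 UMIs, and 6 cell barcodes occurred in both libraries. Cells were sorted into 4 gates by SOX2, DLL3 and HES6 alone, none of which is among the 6 genes. A cell was in the DLL3 and HES6 gate when it held at least 1 UMI of each (40 and 61 cells in replicates 1 and 2), and in the intermediate gate when it held exactly 1 of the 2 genes (257 and 376 cells). It was in the SOX2-only gate when it held SOX2 without DLL3 or HES6 (841 and 1105 cells), and in the last gate when it held none of the 3 (801 and 875 cells). The gates differed in depth. Median UMIs per cell were 9339 and 9977 in the DLL3 and HES6 gate, 7720 and 7364 in the intermediate gate, 5619 and 6622 in the SOX2-only gate and 3469 and 3420 in the gate with none. The neuron markers, none of which is among the 6 genes, summed to 5156 and 4200 CPM in the DLL3 and HES6 gate, 3125 and 3004 CPM in the intermediate gate, 1160 and 1186 CPM in the SOX2-only gate and 2502 and 2148 CPM in the gate with none. The median share of ribosomal protein UMIs was 12.8% and 17.9% in the DLL3 and HES6 gate, 6.50% and 10.3% in the intermediate gate, 4.57% and 7.39% in the SOX2-only gate and 3.39% and 3.74% in the gate with none.

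All 6 genes were higher in cells with DLL3 and HES6 than in SOX2-only cells, in both replicates. In that contrast 31.7% of the 12998 genes tested passed edgeR's quasi-likelihood test at an adjusted p under 0.05, 16.7% as higher and 15% as lower, so the count of 6 of 6 stands against that background. Levels are given as CPM, the UMIs of a gene per 1000000 UMIs of the summed cells. Log2 fold changes come from the edgeR fit, whose TMM factors allow for differences in RNA composition between the sums. The 2 gates differed in their clusters, described below. The neuron-like cluster 6 held 23 and 33 of the 40 and 61 DLL3 and HES6 cells, but 23 and 22 of the 841 and 1105 SOX2-only cells. Within cluster 6, STMN2 was at 2056 and 2772 CPM against 1847 and 2302 CPM, and TUBB3 at 851 and 991 CPM against 464 and 594 CPM. DCX was at 677 and 485 CPM against 576 and 553 CPM there. The part of this make-up in the contrast was not tested.

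Among the cytoskeletal genes, TUBB3 stood at 726 and 783 CPM in the DLL3 and HES6 gate of replicates 1 and 2, against 85.9 and 82.9 CPM in the SOX2-only gate. The difference was a log2 fold change of 3.44 (SE 0.158, edgeR adjusted p = 2.50e-11). The tubulin-binding STMN2 was at 2075 and 2312 CPM against 227 and 231 CPM, a log2 fold change of 3.54 (SE 0.164, edgeR adjusted p = 3.28e-11). For both genes the replicates of a gate lay close together and the gates were far apart. DCX was at 518 and 336 CPM against 66.5 and 49.2 CPM, and was thus higher in replicate 1 in each of the 2 gates. Its log2 fold change was 3.15 (SE 0.159, edgeR adjusted p = 8.47e-11).

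The RNA-binding genes differed from each other in the size of the change. ELAVL4 was at 591 and 578 CPM in the DLL3 and HES6 gate and at 41.5 and 42.7 CPM in the SOX2-only gate (log2 fold change 4.08, SE 0.137, edgeR adjusted p = 4.01e-13). ELAVL3 was at 383 and 404 CPM against 87.8 and 73.3 CPM (log2 fold change 2.59, SE 0.139, edgeR adjusted p = 1.97e-10). ELAVL3 thus had the highest SOX2-only level relative to its own DLL3 and HES6 level among the 6 genes. Of the relatives that are not among the 6, the neuronal ELAVL2 was also higher, at 263 and 192 CPM against 61.7 and 44.4 CPM (log2 fold change 2.38, edgeR adjusted p = 2.18e-09). The broadly expressed ELAVL1 stood at 64.4 and 58.3 CPM against 111 and 93.1 CPM and did not pass the test (log2 fold change -0.44, edgeR adjusted p = 0.0996).

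INSM1 had the largest log2 fold change of the 6, 5.52 (SE 0.211, edgeR adjusted p = 2.66e-12). It was at 237 and 225 CPM in the DLL3 and HES6 gate and at 6.92 and 5.40 CPM in the SOX2-only gate, where 77 INSM1 UMIs were counted in all. It was also among the 8 genes with the largest increase in the whole table among genes averaging 20 CPM or more. SOX2 itself, which takes part in the gates, was at 246 and 283 CPM in the DLL3 and HES6 gate. All 6 genes kept an adjusted p under 0.05 in this contrast when only cells with at least 10% ribosomal protein UMIs were used, and when only cells under 10% were used, although the latter left 11 and 14 cells in the DLL3 and HES6 gate. With library totals alone as the scale, the median log2 fold change of all genes tested moved from -0.05 to -0.34 and the share of calls that were higher from 52.6% to 28.7%, and all 6 genes were still higher.

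**Figure D1:**
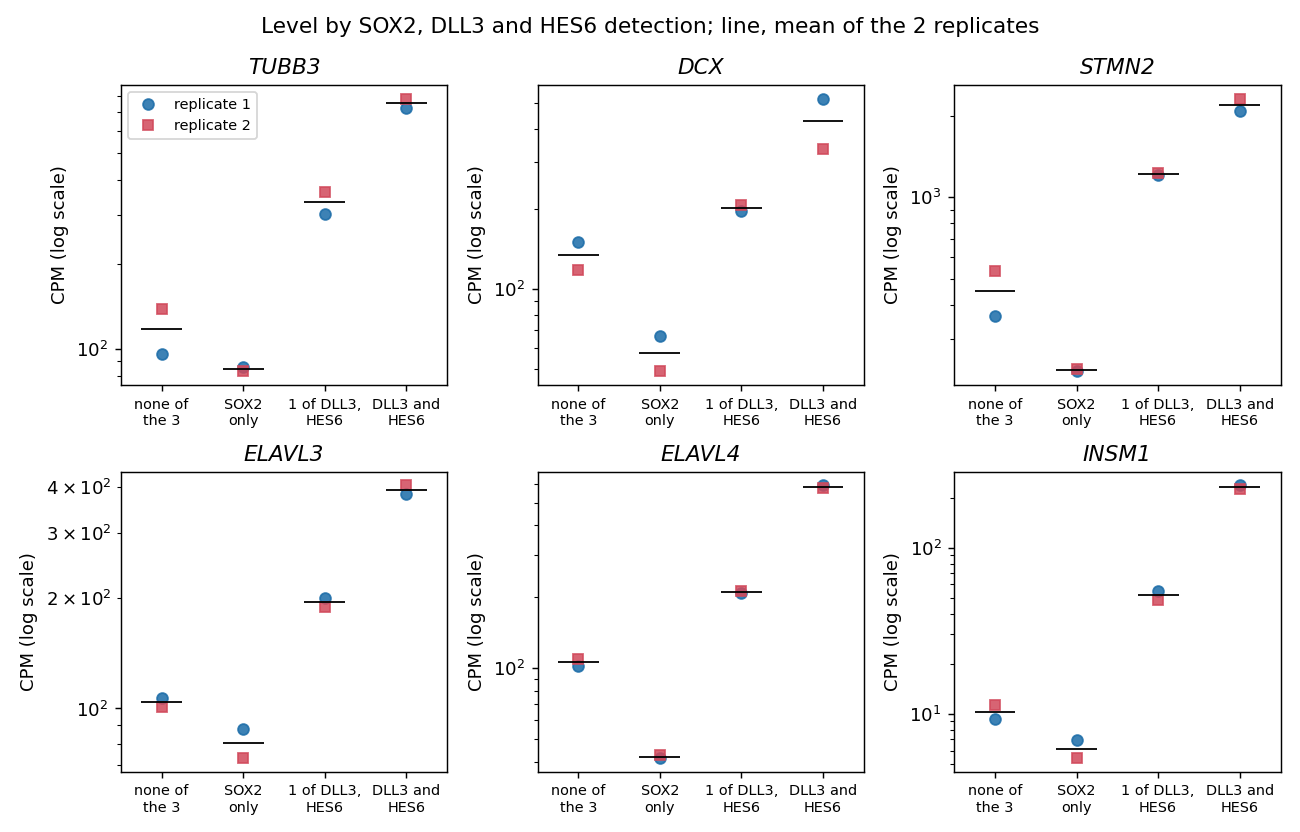
Level of each of the 6 genes in CPM (vertical axis, log scale) in the 4 gates set by SOX2, DLL3 and HES6 (horizontal axis), with 1 point per replicate and a line at the mean of the 2 replicates. For every gene the DLL3 and HES6 gate is the highest and the SOX2-only gate the lowest, with INSM1 going from 6.92 and 5.40 CPM to 237 and 225 CPM.

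The gate with exactly 1 of DLL3 and HES6 lay between the 2 others for all 6 genes. All 6 were higher there than in SOX2-only cells, against a background of 7.92% of genes called higher, 3.24% lower and 11.2% in either direction. STMN2 was at 1208 and 1223 CPM, with a log2 fold change of 2.46 over SOX2-only cells (SE 0.156, edgeR adjusted p = 3.88e-09). INSM1 was at 55.2 and 48.6 CPM (log2 fold change 3.13, SE 0.204, edgeR adjusted p = 4.41e-09). The other 4 genes had log2 fold changes from 1.33 (ELAVL3) to 2.36 (ELAVL4). These levels are averages over cells with and without SOX2. In the intermediate gate STMN2 was at 2185 and 2268 CPM in the 106 and 152 cells without SOX2. It was at 599 and 635 CPM in the 151 and 224 cells with SOX2. In the DLL3 and HES6 gate it was at 2746 and 2720 CPM without SOX2 and at 1719 and 2123 CPM with it. The split between higher and lower calls in the intermediate gate depended on the scale: 71.0% of calls were higher with edgeR's factors and 59.2% with library totals alone. Trophoblast markers moved with this gate as well: 5 of the 9 tested, from a list of 11, were higher than in SOX2-only cells, and the list summed to 882 and 690 CPM against 368 and 328 CPM, with all 11 detected in both gates. In the DLL3 and HES6 gate it summed to 635 and 698 CPM, and PAG11, PRP1, TKDP1, TKDP4, CSH2, PTGS2 and CDX2 were at 0. In cells with 5 or 6 of the 6 genes, a set described below, GATA3 was the only marker of the list detected. The list still summed to 718 and 855 CPM there, so such a sum can come from 1 gene. The part of GATA3 in the sums of the gates, and of trophoblast RNA in the result, was not tested. The 6 genes themselves were near 0 in trophoblast-like cells, as given below.

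All 6 genes were also higher in cells with DLL3 and HES6 than in cells with exactly 1 of them, in a contrast where 6.96% of genes were called higher, 6.97% lower and 13.9% in either direction. INSM1 and ELAVL4 had the largest differences of the 6, with log2 fold changes of 2.39 (SE 0.181, edgeR adjusted p = 2.63e-07) and 1.71 (SE 0.127, edgeR adjusted p = 2.54e-07). STMN2 had the smallest, 1.08 (SE 0.151, edgeR adjusted p = 1.56e-04). INSM1 and ELAVL4 thus differed between the intermediate and the DLL3 and HES6 gate by more than STMN2 did on the log2 scale. The differences between genes were not tested, and the gates are sets of cells that are not read as steps in time.

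SOX2-only cells were the lowest of the 4 gates, below cells with none of the 3 genes. All 6 genes were lower in SOX2-only cells than in cells with none, in a contrast where 12.7% of genes were called lower, 9.44% higher and 22.2% in either direction. ELAVL4 was at 41.5 and 42.7 CPM against 102 and 109 CPM (log2 fold change -1.39, SE 0.126, edgeR adjusted p = 2.27e-07), and DCX was at 66.5 and 49.2 CPM against 151 and 118 CPM (log2 fold change -1.28, SE 0.141, edgeR adjusted p = 2.22e-06). TUBB3 showed the weakest separation, with 85.9 and 82.9 CPM against 95.9 and 138 CPM (log2 fold change -0.53, SE 0.147, edgeR adjusted p = 0.0142). The gate with none was a mixture. Cells of clusters 6, 7 and 8, described below as the clusters richest in the 6 genes, made up 17.6% and 15.7% of it but 3.45% and 2.90% of the SOX2-only gate. It also held most blood and mesenchyme cells, since erythroid markers summed to 14020 and 24180 CPM there against 344 and 3352 CPM in SOX2-only cells, and mesenchyme markers to 3383 and 6505 CPM against 371 and 447 CPM. The sums alone do not tell a smaller number of neuron-like cells from less RNA per cell. Within cluster 6, INSM1 was higher in SOX2-only cells than in cells with none in both replicates. TUBB3, DCX, STMN2, ELAVL3 and ELAVL4 were higher there in replicate 1 and lower in replicate 2. For example, STMN2 stood at 1847 and 2302 CPM against 1293 and 2377 CPM. The part of the clusters in the contrast was not tested. Without the replicate as a block TUBB3 (adjusted p = 0.115) and ELAVL3 (adjusted p = 0.0654) missed edgeR's threshold, and in cells with a ribosomal protein share under 10% 3 of the 6 genes passed it. The share of calls that were higher was 42.6%, or 53.5% with library totals alone.

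The other cytoskeletal and RNA-binding genes were read from fixed lists. Of 30 further neuronal cytoskeleton genes, 27 were higher with DLL3 and HES6 than in SOX2-only cells, with a median log2 fold change of 1.96 against -0.05 over all genes tested. The intermediate filament gene INA stood at 193 and 185 CPM against 15.2 and 17.3 CPM (log2 fold change 3.81), and the stathmin relative STMN4 at 208 and 175 CPM against 17.3 and 17.5 CPM (log2 fold change 3.72). The neurofilament gene NEFL (log2 fold change 3.52) and TAGLN3 (3.94) were the other largest changes of that list, the latter from 7 UMIs in each gate. NEFH, the heavy neurofilament subunit, was the only 1 of the list that was lower (log2 fold change -2.23, edgeR adjusted p = 0.0155), and it is named here after its value was seen. The widely expressed beta-tubulin gene TUBB was also higher, at 802 and 920 CPM against 421 and 417 CPM (log2 fold change 1.32, edgeR adjusted p = 5.08e-07). With library totals alone the cytoskeletal list gave 26 higher and 2 lower.

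Of 20 neuronal RNA-binding and splicing genes, 13 were higher and 1, KHDRBS3, was lower (log2 fold change -0.61), with a median log2 fold change of 0.96. The neuronal splicing regulator SRRM4 was at 963 and 526 CPM against 28.6 and 18.5 CPM (log2 fold change 5.24, edgeR adjusted p = 9.07e-09), and its relative SRRM3 at 281 and 195 CPM against 13.7 and 14.9 CPM (log2 fold change 4.29). CELF3 and CELF5, of the CELF family of RNA-binding proteins, had log2 fold changes of 4.60 and 3.23. PTBP1, the splicing repressor of non-neuronal cells, was lower at 43.9 and 58.3 CPM against 111 and 102 CPM (log2 fold change -0.74, edgeR adjusted p = 0.0145). PTBP1 belongs to a list of 7 widely expressed relatives, of which 2 (TUBB and TUBA1C) were higher, 1 was lower and 4 did not pass, while with library totals alone 1 was higher and 4 were lower.

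Proneural and early neuron factors were higher too, 21 of the 23 tested, with a median log2 fold change of 3.97. The homeodomain factor ONECUT1 was at 120 and 118 CPM against 5.57 and 3.16 CPM (log2 fold change 5.11). The helix-loop-helix factor NHLH1 (log2 fold change 5.08) rested on 13 and 6 UMIs. Synaptic and excitability genes were higher in 19 of 31 tested, and axon guidance and adhesion genes in 18 of 27. The genes that were lower, named after their values were seen, were the synapsin gene SYN2 (log2 fold change -0.92) and the guidance genes SLIT2 (-2.32) and UNC5C (-0.61). The netrin receptor DCC was at 1115 and 708 CPM against 50.6 and 32.3 CPM (log2 fold change 4.74, edgeR adjusted p = 0.0107), and the commissural axon receptor ROBO3 had a log2 fold change of 5.45. Of 34 cell cycle genes, 18 were lower and 4 (CCND1, CDKN1B, CDKN1C and CDKN2D) were higher, with a median of -1.13. The mitotic motor gene CENPE stood at 14.6 and 5.14 CPM against 113 and 98.7 CPM (log2 fold change -3.31), while the cyclin-dependent kinase inhibitor CDKN1C was at 688 and 497 CPM against 84.95 and 77.0 CPM (log2 fold change 3.14). Other genes high in the whole table included SEZ6, OLFM1 and the axonal adhesion gene CNTN2, and CLDN5, a tight junction gene usually linked with endothelium, at 55.6 and 94.3 CPM against 0.96 and 1.19 CPM. Of the 8 endothelial markers, 3 could be tested and 1 was higher, and CDH5, KDR, EGFL7 and ESAM had no UMI in the DLL3 and HES6 gate. Sensory placode markers summed to 761 and 446 CPM against 106 and 86.3 CPM, with 3 of 5 tested higher and 1 lower, and endocrine markers to 380.4 and 332.5 CPM against 102 and 95.2 CPM, with 3 of 4 higher. TLX3 and INS were at 0 in the SOX2-only gate. Their part in the result was not tested.

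**Figure D2:**
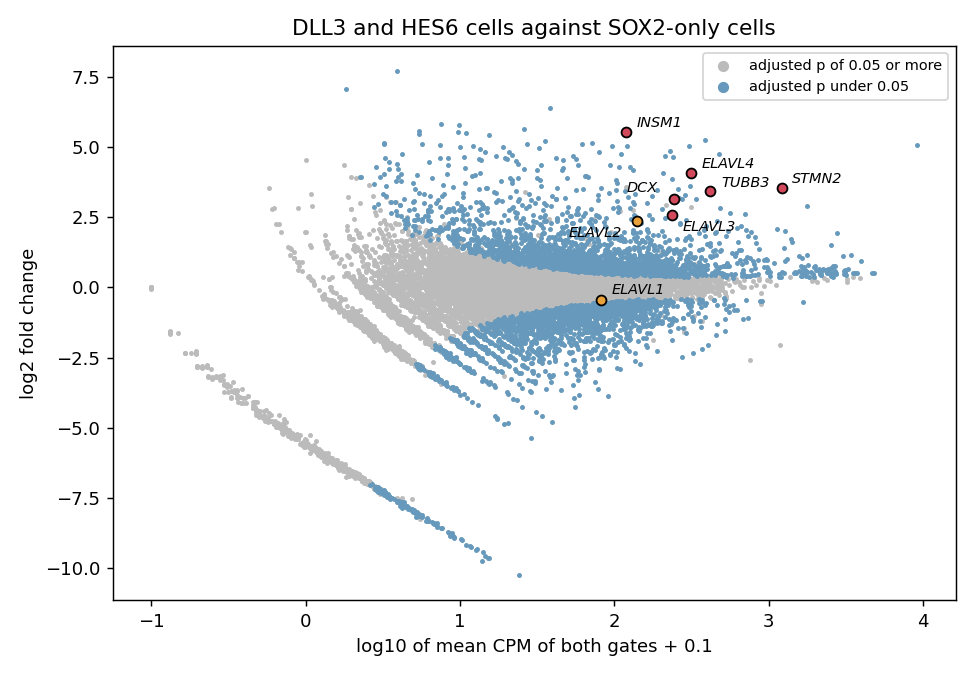
Log2 fold change of cells with DLL3 and HES6 over SOX2-only cells (vertical axis) against the log10 of the mean CPM of both gates + 0.1 (horizontal axis) for the 12998 genes tested, with genes at an adjusted p under 0.05 in blue. The 6 genes (red) and ELAVL2 (orange) lie above the bulk, from 2.38 to 5.52, ELAVL1 (orange) lies at -0.44, and the separate lower strip holds genes with no UMI in cells with DLL3 and HES6, whose plotted value is set by the fit and is no measure of size.

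To follow the 6 genes within single cells at equal depth, each cell was thinned at random to 2000 UMIs, which left out 286 and 319 shallower cells. None of the 6 was detected in 46.9% and 48.5% of the remaining 1653 and 2098 cells, and 3 or more were detected in 13.3% (220 cells, exact binomial interval 11.7% to 15.0%) and 12.2% (257 cells, 10.9% to 13.7%). These and all later intervals are 95% and cover counting error only. Without thinning the share was 23% and 21.9%, so it depends on depth. In mesenchyme-like, erythroid-like and trophoblast-like cells together, which should lack these genes, 0 of 53 and 0 of 95 cells had 3 or more, which allows a share of up to 5.66% and 3.16%, taking 3 cells of the total as the limit for a count of 0 (the exact binomial upper bounds are 6.72% and 3.81%). Those cells were deeper before thinning, with median UMIs of 13910 and 13290, and no single gene of the 6 was found in more than 3 of them in either replicate.

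SOX2 was found less often in cells with many of the 6 genes. It was detected in 15.9% of cells with 3 or more in replicate 1 (interval 11.3% to 21.4%) and in 19.8% in replicate 2 (15.2% to 25.3%), against 36.9% (33.5% to 40.4%) and 38.5% (35.5% to 41.6%) of cells with 0. The share did not fall from the start: with exactly 1 of the 6 detected it was 38.9% and 43.6%, with 2 it was 30.2% and 32.6%, with 3 it was 21.5% and 21.4%, and with 4 it was 6.25% and 20.3%. SOX2 was thus not rarer with 1 gene than with 0 and rarer in cells with 3 or more. Cells with 3 or more also held SOX2 less often than cells with 0 at 1000 and at 4000 UMIs per cell, but not without thinning, where 47.3% and 50% of cells with 3 or more held SOX2 against 42.8% and 45.2% of cells with 0, the latter being shallower cells (median 3596 and 3874 UMIs).

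DLL3 and HES6 went the other way. At least 1 of them was detected in 21.8% (interval 16.6% to 27.9%) and 33.5% (27.7% to 39.6%) of cells with 3 or more of the 6 genes, against 3.35% (2.20% to 4.87%) and 4.72% (3.497% to 6.203%) of cells with 0. With exactly 5 of the 6 the share was 29.0% and 46.8%, of 31 and 47 cells. DLL3 and HES6 together were seen in 4.09% and 5.06% of cells with 3 or more, and SOX2 together with DLL3 or HES6 in 4.09% and 8.95%. The majority of cells with 3 or more of the 6 genes therefore showed neither DLL3 nor HES6 at this depth.

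**Figure D3:**
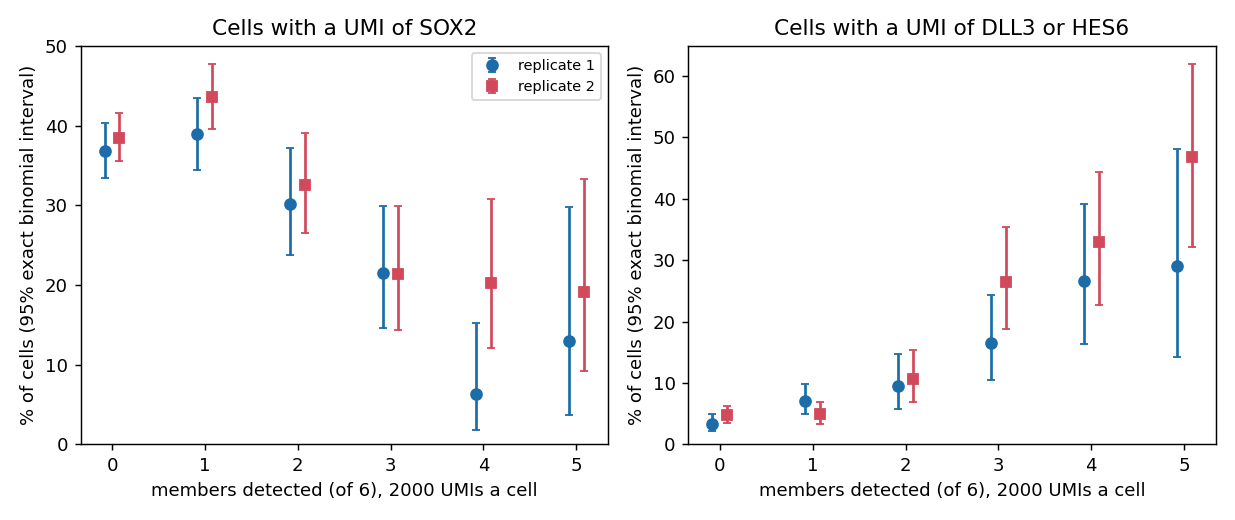
Share of cells with a UMI of SOX2 (left) and of DLL3 or HES6 (right), in percent with 95% exact binomial intervals, by the number of the 6 genes detected in cells thinned to 2000 UMIs, for each replicate. SOX2 goes from 38.9% and 43.6% at 1 gene to 21.5% and 21.4% at 3 genes, while DLL3 or HES6 goes from 3.35% and 4.72% at 0 genes to 29.0% and 46.8% at 5 genes.

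The 6 genes were ordered along this count by the mean number of the other 5 genes in cells that hold a given gene. A low number means that a gene is often seen with few of the others. The number can depend on how often a gene is detected, so the share of cells that hold each gene is given beside it. STMN2, found in the most cells, came first, and ELAVL4 and INSM1, found in the fewest, came last. The order thus largely repeats the share of cells and is not read as an order in time. The order was STMN2 (1.42 and 1.47 others, in 28.7% and 27.2% of cells), ELAVL3 (1.46 and 1.51, in 18.3% and 17.8%), then DCX (1.53 and 1.78, in 18.45% and 16.2%) and TUBB3 (1.62 and 1.74, in 16.5% and 18.2%), ELAVL4 (1.89 and 1.96, in 14.3% and 14.9%) and INSM1 (2.58 and 2.98, in 3.21% and 2.86%). DCX and TUBB3 changed places between the replicates, and STMN2 and ELAVL3 changed places at 1000 UMIs, so neighbouring ranks other than the last 2 were not stable. ELAVL3 was the only 1 of the 6 present in 35.1% and 37.3% of its 302 and 373 cells, and ELAVL4 in 18.6% and 22.1% of its 237 and 312 cells. INSM1 was alone in 4 of 53 and 6 of 60 cells.

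The level of each gene followed the number of the other 5. In cells with 0 of the others TUBB3 stood at 47.9 and 46.2 CPM, with 2 at 313 and 361 CPM, and with 4 at 805 and 1210 CPM. STMN2 went from 132 and 146 CPM through 1090 and 1345 CPM to 3314 and 4332 CPM over the same steps. ELAVL4 went from 25.8 and 25.9 CPM to 590 and 647 CPM, and DCX from 57.4 and 39.1 CPM to 506 and 516 CPM. These levels are over all cells of a set, with or without the gene, so an increase in detection and one per positive cell were not separated. ELAVL3 went from 66.5 and 54.8 CPM to 472 and 545 CPM, which was the smallest ratio of the 6. INSM1 stood at 3.01 and 2.62 CPM with 0 others, from 16 and 20 UMIs, and reached 150 and 159 CPM with 4 and 240 and 207 CPM with 5.

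**Figure D4:**
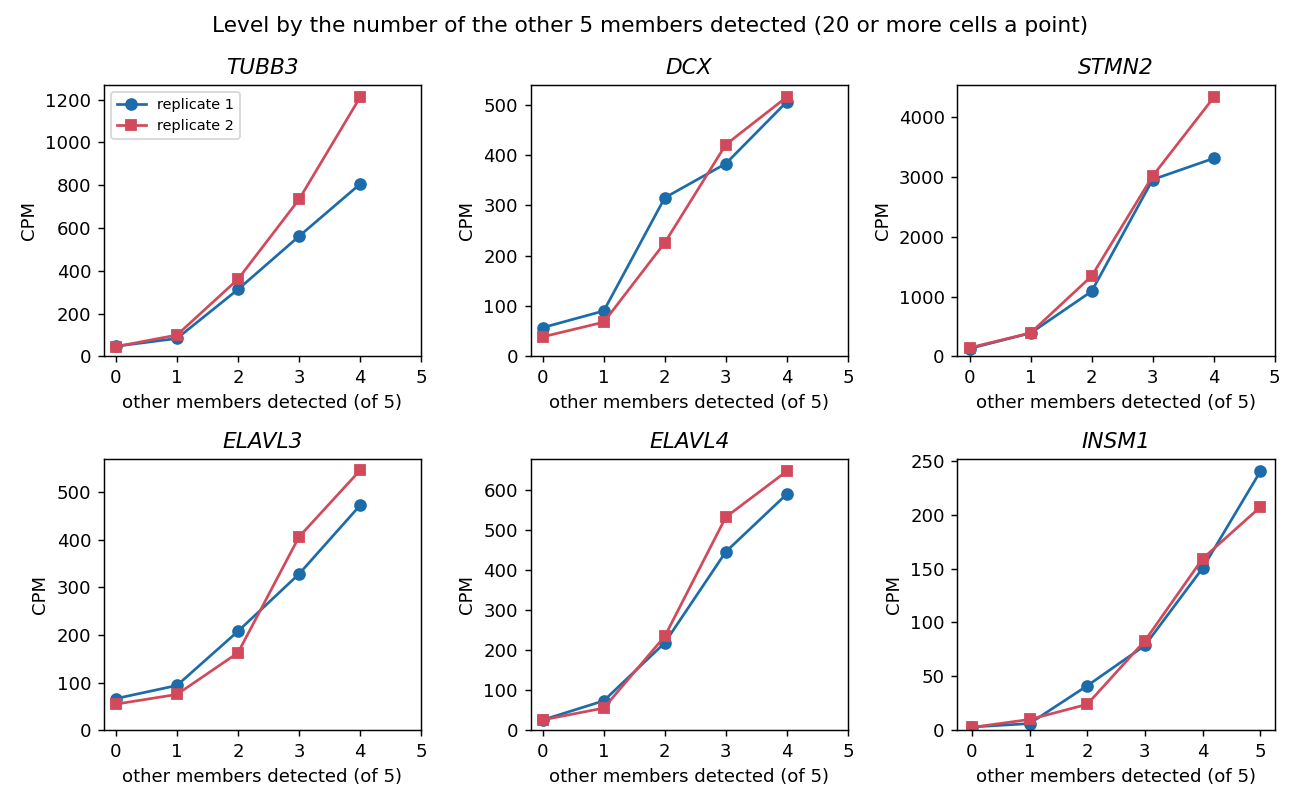
Level of each of the 6 genes in CPM (vertical axis, from 0) by the number of the other 5 genes detected in the same cells (horizontal axis), with 1 line per replicate and only points with 20 or more cells. All 6 increase in both replicates, for example TUBB3 from 47.9 and 46.2 CPM to 805 and 1210 CPM at 4 others.

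All 15 pairs of the 6 genes were found together more often than the product of their shares, by 1.49 to 3.54 times in replicate 1 and by 1.77 to 3.81 times in replicate 2. These ratios are a description over cells that share a library and hold both neural and other cells. Among pairs without INSM1 the highest ratio was that of DCX and ELAVL4, 2.52 and 2.60, with 110 and 131 cells. The ratio of DCX and ELAVL3 was 1.49 and 1.84, and that of STMN2 and ELAVL3 was 1.79 and 1.77. TUBB3 and INSM1 were together in 31 and 37 cells, 3.54 and 3.40 times the product. Cells with INSM1 also held DLL3 or HES6 in 34.0% and 45% of cases, against 6.69% and 7.85% of cells without it.

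Cells were then summed by the number of the 6 genes detected (0, 1 or 2, 3 or 4, 5 or 6), and all other genes were tested between these sums. The 6 genes set the sums and get no test there. Cells with 5 or 6 (35 and 61 cells) differed from cells with 1 or 2 (657 and 823 cells) in 38.9% of the 12741 genes tested, 20.6% higher and 18.3% lower. The upper set was deeper (median 9330 and 9410 UMIs against 5518 and 5980) and had a higher median ribosomal protein share (11.99% and 12.4% against 3.28% and 6.02%). Endocrine markers summed to 485 and 529 CPM against 137 and 113.5 CPM, with 3 of 6 tested higher, and sensory placode markers to 380.4 and 324 CPM against 143 and 102 CPM, with 3 of 5 higher and 1 lower. INS was at 0 in the cells with 1 or 2 genes. Their part in the differences was not tested. SOX2 was lower, at 72.1 and 127 CPM against 280 and 307 CPM (log2 fold change -1.22, SE 0.163, edgeR adjusted p = 1.36e-06). DLL3 was higher, at 262 and 174 CPM against 16.8 and 25.9 CPM (log2 fold change 3.53, SE 0.260, edgeR adjusted p = 2.50e-07). HES6 was at 764 and 320 CPM against 41.1 and 44.0 CPM, and so varied by more than 2-fold between replicates within the upper set (log2 fold change 3.83, SE 0.493, edgeR adjusted p = 0.0109). All 3 calls were lost when cells were thinned to 1000 UMIs, which left 10 and 15 cells with 5 or 6 (adjusted p = 0.107 for SOX2, 0.261 for DLL3 and 0.0773 for HES6). ELAVL2 was higher (log2 fold change 1.94, edgeR adjusted p = 6.11e-11) and ELAVL1 lower, at 45.9 and 49.3 CPM against 102 and 87.8 CPM (log2 fold change -0.69, edgeR adjusted p = 0.0125).

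The steps between these sums were unequal. From 0 to 1 or 2 genes 10.9% of genes were called, 5.42% higher and 5.53% lower. Neither SOX2 (log2 fold change 0.18, edgeR adjusted p = 0.317) nor HES6 (1.35, edgeR adjusted p = 0.299) passed, while DLL3 was higher at 16.8 and 25.9 CPM against 2.83 and 5.01 CPM (2.33, edgeR adjusted p = 1.65e-04). That DLL3 call was lost at 1000 UMIs (adjusted p = 0.054) and without thinning (adjusted p = 0.929), and SOX2 was called higher without thinning (log2 fold change 0.60, adjusted p = 3.41e-05). From 1 or 2 to 3 or 4 genes 41% were called, 21.1% higher and 19.8% lower, and SOX2 was lower, at 138 and 147 CPM against 280 and 307 CPM (log2 fold change -0.90, edgeR adjusted p = 8.73e-07). From 3 or 4 to 5 or 6 genes 4.55% were called, 2.72% higher and 1.83% lower, among them DLL3 (log2 fold change 1.09, edgeR adjusted p = 0.0244). The largest count of calls thus fell on the middle step, although the sums rest on unequal numbers of cells, which also sets what can be called. It was also the step at which the cells' clusters changed: clusters 6, 7 and 8 held 12.6% and 10.1% of cells with 1 or 2 genes, 77.3% and 81.1% of cells with 3 or 4, and 97.1% and 96.7% of cells with 5 or 6.

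Between cells with 5 or 6 and cells with 1 or 2 genes, 28 of 30 further cytoskeletal genes were higher and none lower by edgeR, with a median log2 fold change of 2.21 against -0.02 over all genes tested. DCLK2 and NEFH, named after their values were seen, were the 2 that did not pass. INA was at 525 and 679 CPM against 38.7 and 31.2 CPM (log2 fold change 4.40), and MLLT11 at 856 and 942 CPM against 58.6 and 76.6 CPM (3.99). RNA-binding genes were higher in 13 of 20, synaptic genes in 25 of 31, and proneural and early neuron factors in 20 of 25. Of 34 cell cycle genes 24 were lower and 3 higher. The mitotic kinase gene CDK1 had 1 UMI in the cells with 5 or 6 against 451 in those with 1 or 2, and the 3 higher genes were the kinase inhibitors CDKN1B, CDKN1C and CDKN2D, named after their values were seen. Of 18 Notch components 9 were lower and 3 higher: HES1 had 1 UMI in the upper set and 131 and 139 CPM in the lower set, and the 3 higher genes were DLL1, RBPJ and DNER, named after their values were seen. The progenitor intermediate filament gene NES was at 118 and 140 CPM against 666 and 737 CPM (log2 fold change -2.15). The collagen gene COL4A5 and PDE1A had no UMI in the upper set and were at least 14.8-fold and 16.7-fold lower, taking 3 counts over the set as the floor. With library totals alone 35.1% of calls were higher in place of 53.0%, and the cytoskeletal list gave 27 higher and 0 lower.

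Across clusters, which were made without the 6 genes, 3 stood out. Cluster 6 (200 and 233 cells) and cluster 8 (74 and 88 cells) each carried 13 of 20 neuron markers, among them MAPT, GAP43 and SYT1, and are neuron-like. Cluster 7 (14 and 17 cells) carried 11 of them but was led by neuropeptide and secretory granule genes such as PENK and SCG2, and is called by its number. A further cluster, 16, reached 3 neuron markers but had STMN2 at 27.9 and 24.3 CPM and no INSM1 UMI in either replicate, so the 6 genes go against that name and it is also called by its number. Cluster 13 (18 and 33 cells), with SCRG1 and BNC2 among its leading genes, held ELAVL4 at 372 and 369 CPM and INSM1 at 133 and 42.4 CPM. In mesenchyme-like, erythroid-like and trophoblast-like cells none of the 6 passed 10.2 CPM, and INSM1 had no UMI.

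Clusters 6 and 8 were both high for all 6 genes and differed in the levels of several. STMN2 stood at 1689 and 2668 CPM in cluster 6 and at 3167 and 3782 CPM in cluster 8, where both values are above those of cluster 6. INSM1 was at 108 and 144 CPM in cluster 6 and at 58.7 and 68.4 CPM in cluster 8, and ELAVL4 at 502 and 628 CPM and at 442 and 504 CPM. DLL3 stood at 178 and 198 CPM in cluster 6 and at 18.3 and 8.54 CPM in cluster 8, and SOX2 at 110 and 102 CPM and at 12.8 and 44.4 CPM. Cluster 8 thus had more STMN2 and less INSM1, DLL3 and SOX2 than cluster 6 in each replicate, as a description with no test. Cluster 6 also had a lower ribosomal protein share (median 2.39% against 9.73%) and fewer UMIs per cell (5096 against 7353), and their part in the difference was not tested.

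Within cluster 6 the gates separated INSM1 more than the other genes. INSM1 was at 243 and 307 CPM in cells with DLL3 and HES6, at 174 and 163 CPM in cells with exactly 1, at 85.9 and 81.4 CPM in SOX2-only cells and at 23.6 and 46.2 CPM in cells with none. DCX over the same gates was at 677 and 485 CPM, 546 and 644 CPM, 576 and 553 CPM, and 513 and 560 CPM. The INSM1 values of the 4 gates did not overlap between replicates, and those of DCX did. The DLL3 and HES6 cells of cluster 6 numbered 23 and 33 and were deeper (median 8874 and 9132 UMIs) than the cells with none (3895 and 4044).

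Outside the neuron-like clusters some clusters held several of the 6 genes, and some cells held a single 1 of them. Cluster 13 had STMN2 at 943 and 980 CPM, ELAVL3 at 239 and 267 CPM and TUBB3 at 153 and 195 CPM. Cluster 15 (55 and 68 cells) had STMN2 at 291 and 472 CPM, TUBB3 at 87.3 and 165 CPM and ELAVL4 at 109 and 94.35 CPM. Cluster 0, a SOX2-expressing cluster (326 and 298 CPM), held ELAVL3 at 220 and 203 CPM and ELAVL2 at 137 and 102 CPM, with ELAVL4 at 9.38 and 19.0 CPM. Cells in which ELAVL3 was the only 1 of the 6 lay in cluster 0 in 26.4% and 23.02% of cases, against 10.3% and 7.77% of all cells. Cluster 19, led by the R-spondin genes RSPO2 and RSPO3, held STMN2 at 503 and 688 CPM with TUBB3 at 65.4 and 64.9 CPM and ELAVL4 at 18.2 and 18.9 CPM. It took 13.8% and 17.4% of cells with STMN2 alone, against 4.66% and 4.53% of all cells. Cluster 9, led by ERBB4 and THSD4, held DCX at 143 and 136 CPM, STMN2 at 110 and 101 CPM and TUBB3 at 14.3 and 22.5 CPM. It took 22.0% and 22.6% of cells with DCX alone, against 7.08% and 5.43% of all cells. Clusters 0, 19 and 9 all held SOX2, at 374 and 416 CPM in cluster 19 and at 206 and 202 CPM in cluster 9. ELAVL4 was at most 63.1 CPM and INSM1 at most 18.8 CPM in any of these 3 clusters. They were not the only such clusters. ELAVL3 stood at 146 and 146 CPM in cluster 4, and STMN2 at 331 and 344 CPM in cluster 5. DCX stood at 116 and 88.7 CPM in cluster 12, which took 15.4% and 11.8% of cells with DCX alone against 5.93% and 5.24% of all cells.

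**Figure D5:**
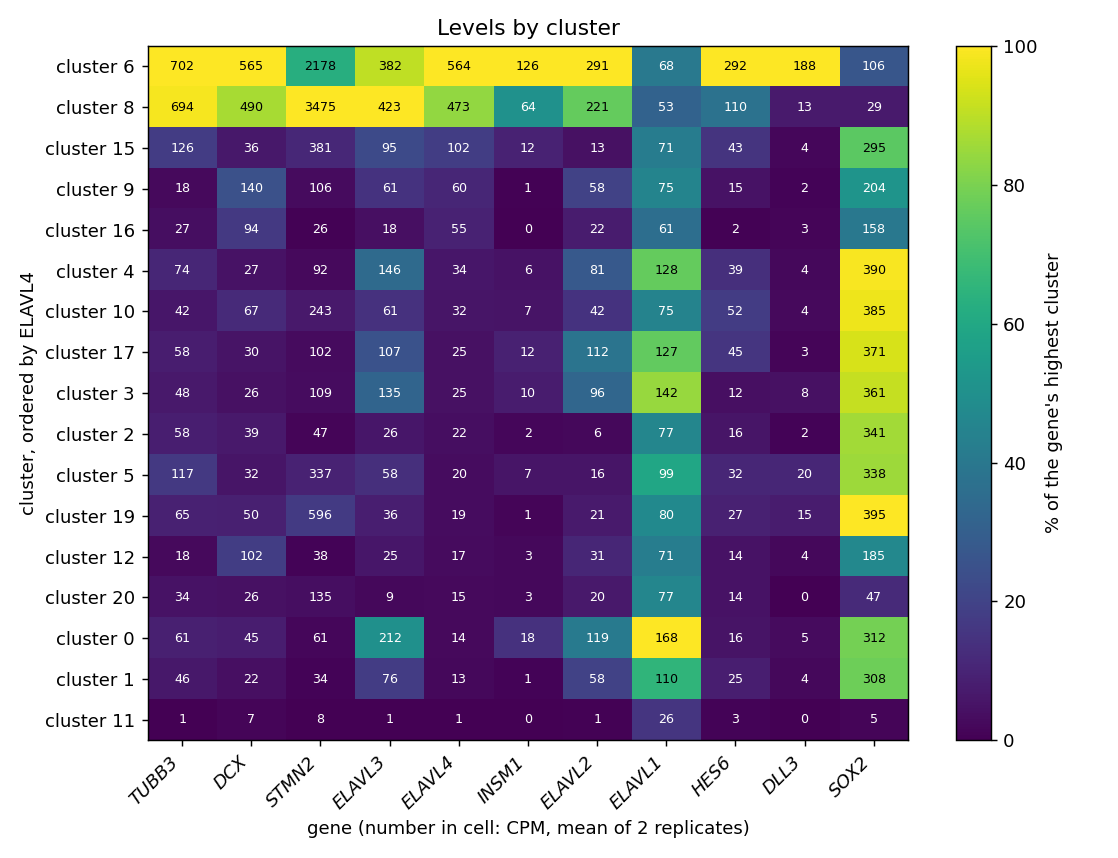
Mean CPM of 2 replicates (number in each cell) and its percentage of the gene's highest cluster (colour) for the 6 genes, ELAVL2, ELAVL1, HES6, DLL3 and SOX2 (columns) in the 17 clusters with 20 or more cells in each replicate (rows, ordered by ELAVL4). Clusters 6 and 8 are high for all 6 genes. Among other clusters, for example, ELAVL3 is also seen in clusters 0 and 4, STMN2 in clusters 19, 15 and 5, DCX in clusters 9 and 12 and ELAVL4 in cluster 15.

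Likeness between genes was measured over the 17 clusters with at least 20 cells in each replicate, as Pearson's r of log2(CPM + 20) among 10055 genes. The points share their libraries and differ in depth, and the values are a description. TUBB3 was most like SCG3 (0.92 and 0.92), MLLT11, ENHO, STMN2 and GNG3, and STMN2 was most like IGFBPL1 (0.91 and 0.89), TUBB3, SCG3, NSG1 and PPP1R1A. DCX was most like PHACTR1 (0.95 and 0.94), THSD7B, NCAM1, CTNNA2 and ERC2, none of which is shared with TUBB3 or STMN2. ELAVL4 was most like AKAP6 (0.94 and 0.94), RBFOX1, SNAP91, NCAN and GRIK2, and ELAVL3 was most like SYT11 (0.92 and 0.89), NEFM, KIF5A, AP3B2 and RTN3. INSM1 was most like the neuronal zinc finger factor MYT1L (0.94 and 0.93), LOC112449555, NEFL, NSG2 and KLHL1. ELAVL3 followed ELAVL2 at 0.85 and 0.92 and ELAVL4 at 0.66 and 0.71, but over the 12 clusters of resolution 0.5 these values were 0.88 and 0.89, and 0.86 and 0.87. ELAVL4 was closest, among the 6, to DCX (0.83 and 0.89), and at resolution 0.5 to INSM1 in replicate 1 (0.94, with DCX at 0.91).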

How the data were processed

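Single-cell RNA was measured in 2 replicates of 1 group, day 25 bovine chimeric embryos. The authors deposited raw UMI counts, 1 value for each gene in each cell, with no normalization. The submitters' processing notes name Cell Ranger, the bosTau9 genome build, R 4.1.2 and Seurat 4.3.0, and the deposited cells hold 201 to 3999 genes and at most 4.98% mitochondrial UMIs. Here, 78 cells under 500 genes and 3 doublets called by scrublet (expected rate 0.06) were removed. So few doublet calls mean that doublets were hardly assessed.

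Counts were summed per replicate and gate, or per replicate and number of the 6 genes detected after thinning to 2000 UMIs, and tested with edgeR 4.0.16 (TMM, quasi-likelihood, replicate as a block, R 4.3.3), with Benjamini-Hochberg adjustment over all genes tested. Each fit had 3 residual degrees of freedom. edgeR added a median of 15 in the fit by gate and 22.8 in the fit by number, drawn from the spread of all genes. The p-values thus rest on a spread shared over genes as well as on the 2 samples. The replicate is a block because all sums of 1 replicate come from the same suspension. SOX2, DLL3 and HES6 were left out of counts of calls by gate, and the 6 genes out of tests by number. The contrasts of DLL3 and HES6 against exactly 1 of them and between adjacent numbers are further contrasts of the same fits. The fit and the thinning were tested on simulated data. CPM are UMIs per 1000000 UMIs of the summed cells, counted at 3' ends, so levels of different genes are not compared.

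Clusters came from scanpy 1.11.5 (Leiden resolution 1, 30 components, 2000 variable genes without the 6 genes, SOX2, DLL3, HES6, the list genes, GFP, or mitochondrial and ribosomal protein genes). A cluster was named from at least 3 markers among its leading 200 genes.

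The 6 genes, the gates and the lists (252 genes, 245 in the table) were chosen with earlier results of these data known. Named genes are, per list and contrast, up to 4 with the largest log2 fold change at an adjusted p under 0.05 that moved the same way in both replicates, with ELAVL1 and ELAVL2 always. In the 2 main contrasts the 8 highest and 8 lowest genes with a mean of 20 CPM or more, and for each of the 6 genes its 5 most alike, could also be named. Alternatives were DESeq2 1.42.0, other scalings, filters, thinning depths, gates and cluster resolutions. Gene symbols are those of the files, and 6 of 6 genes matched RefSeq's table. Some genes that the rule would name are not reported here.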

Additional observations from a re-analysis of the deposited data

How the results depend on the processing

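All 6 genes passed the test in the DLL3 and HES6 gate and in the intermediate gate, against SOX2-only cells, under every alternative run. Against cells with none, SOX2-only cells gave 6 calls in the main fit, 4 without the replicate block, 4 in cells of at least 10% ribosomal protein UMIs and 3 under 10%. No log2 fold change of the 6 genes changed sign. Counts over all genes depended more on the settings. With DLL3 and HES6 against SOX2 only, 4122 calls became 1674 in cells of at least 10% ribosomal protein UMIs, 1736 under 10%, 1674 with thinned gates and 2508 with gates from 2 UMIs, and 3518 without the replicate block. The intermediate gate's 1451 became 845 with DESeq2, 888 without the replicate block and 616 in cells of at least 10%. SOX2-only against none went from 2883 to 1611 with DESeq2, 1716 without the replicate block, 1370 under 10% and 1158 with thinned gates. For 5 or 6 against 1 or 2 genes, 4950 became 3005 at 10% or more, 2611 under 10%, 1832 at 1000 UMIs, 4410 without the replicate block, 5251 with library totals alone and 7358 with bins on unthinned counts. For 1 or 2 against 0 genes, 1395 became 676 with DESeq2, 696 without the replicate block and 368 under 10%. Fewer cells enter the sums split by ribosomal share, thinned or gated from 2 UMIs, and for DESeq2 and the block the cause was not tested.

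The mean share of cells with 3 or more of the 6 genes was 12.8%, and became 6.12% at 1000 UMIs, 20.8% at 4000 UMIs, 22.5% without thinning, 10.8% from 2 UMIs, 23.9% for 2 or more genes and 6.33% for 4 or more. The SOX2 share in those cells, 17.9%, became 8.92%, 33.4%, 48.7%, 22.0%, 24.2% and 13.8% in the same order. The DLL3 or HES6 share, 27.6%, became 17.02% at 1000 UMIs and 38.6% without thinning. With 1 replicate left out these 3 shares ranged from 12.2% to 13.3%, 15.9% to 19.8% and 21.8% to 33.5%. The order of the genes by the mean number of others kept 2 of 6 ranks without thinning. Of the 30 most alike genes 11 were shared at resolution 0.5 and 16 at resolution 2. Counts of calls could not be recomputed without a replicate, since 1 sum per gate leaves no residual degrees of freedom. Library totals alone and the removal of clusters from 1 replicate were chosen after seeing the data.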

Other observations

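A GFP row is among the deposited genes, and the sources used here do not say which cells carried it. GFP stood at 2388 and 2744 CPM in cells with DLL3 and HES6, 2098 and 2047 CPM in cells with exactly 1 of them, 2107 and 2289 CPM in SOX2-only cells and 627 and 636 CPM in cells with none of the 3.

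Cluster 7 (14 and 17 cells) held the highest TUBB3 of all 25 clusters, at 1057 and 1241 CPM, with INSM1 at 324 and 216 CPM. Among cells with 3 or more of the 6 genes, those with SOX2 had INSM1 at 221 and 193 CPM and STMN2 at 1543 and 2448 CPM, and those without SOX2 had INSM1 at 126 and 127 CPM and STMN2 at 2632 and 3310 CPM. DLL3 was at 314 and 252 CPM with SOX2 and at 98.2 and 102 CPM without it. These are descriptions with no test.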
